A study of Mus musculus with 203 samples.

Results

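The contactins and the contactin-associated proteins are 2 families of neuronal adhesion genes, and 10 of them, Cntn1 to Cntn6, Cntnap1, Cntnap2, Cntnap4 and Cntnap5a, are described here across single motor neurons of the mouse nucleus ambiguus (Amb). They were chosen by name, as 10 rows of a table of 24029 genes counted in single neurons. Each neuron was labeled from its target in C57BL/6 mice by a cholera toxin B conjugate injected on postnatal day 1, either in the pericardial space of the heart or in the cricothyroid muscle of the larynx, and was aspirated from a brainstem slice between postnatal days 2 and 4 for Smart-seq2, which amplifies full-length cDNA by PCR. The deposited annotation assigns the cardiac neurons to an ACP type (ambiguus cardiopulmonary, 53 neurons) and an ACV type (ambiguus cardiovascular, 98 neurons), and the other 52 neurons are laryngeal. The animals were wild-type. For the injection the paper describes anesthesia by hypothermia, buprenorphine and surgery, between the ribs for the heart and over the larynx for the muscle. The surgery thus differed between cardiac and laryngeal neurons, and the paper used other mice for the larynx than for the heart. In comparisons of cardiac with laryngeal neurons, type therefore cannot be told apart from animal or surgery. No label says which neurons came from the same animal, so each type is 1 sample. No test was made, differences are given as ratios of means with the spread over neurons, and a ratio was counted when it reached 2-fold.

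Contactins are immunoglobulin-domain proteins held in the membrane by a glycosylphosphatidylinositol (GPI) anchor, and the contactin-associated proteins, or Caspr proteins, are transmembrane relatives of the neurexins. On myelinated axons contactin-1 (Cntn1) and Caspr (Cntnap1) form the axonal side of the paranodal junction, and contactin-2 (Cntn2, also TAG-1) and Caspr2 (Cntnap2) gather Kv1 potassium channels in the neighboring juxtaparanode. The remaining contactins are known mostly from wiring, where they act in axon guidance and in the choice of synaptic partners.

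ACP and ACV were defined by the authors from clusters of these same counts, so a difference between them describes the types and does not test them, while the laryngeal group was defined by the tracer. Total counts per neuron ran from 542162 to 3292763, and the ribosomal RNA gene Rn45s took a median of 34.3% of them in ACP, 35.8% in ACV and 58.6% in laryngeal neurons. Levels are therefore counts per 1000000 (CPM) of the neuron's total without Rn45s, a total whose median was 1115375, 1120512 and 560892 in the same order. The motor neuron label held. Slc18a3, the vesicular acetylcholine transporter, was read in every neuron and Chat in 100% of ACP and ACV and 88.5% of laryngeal neurons. Genes listed as markers of other cells had reads in every type, and the source of those reads was not tested. The median of 9 summed astrocyte genes was 2196, 2505 and 3269 CPM and that of 6 summed interneuron genes 55.8, 47.7 and 243, in the order ACP, ACV and laryngeal. All 6 microglial genes had a mean at least 2-fold lower in ACP than in either other type, and the means of their sum were 68.8, 359 and 206. Of all genes 8.63% were that much lower in ACP than in ACV and 12.5% than in laryngeal neurons.

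For 4 contactins the 250 bases before a RefSeq start (GRCm38.p6) are shown, because they stand for the patterns described next: Cntn1, read in every neuron, Cntn5, high in both cardiac types, and Cntn3 and Cntn4, high in ACP among the cardiac neurons. Capitals mark E-boxes (CANNTG) and CCAAT boxes (CCAAT, or ATTGG where it lies on the other strand).
Cntn1, chr15:92050915-92051164, plus strand: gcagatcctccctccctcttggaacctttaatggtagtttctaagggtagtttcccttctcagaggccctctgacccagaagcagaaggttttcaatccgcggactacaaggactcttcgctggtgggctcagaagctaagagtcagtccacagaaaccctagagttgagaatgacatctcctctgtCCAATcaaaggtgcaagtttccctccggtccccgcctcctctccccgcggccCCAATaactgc
Cntn5, chr9:10904776-10905025, minus strand: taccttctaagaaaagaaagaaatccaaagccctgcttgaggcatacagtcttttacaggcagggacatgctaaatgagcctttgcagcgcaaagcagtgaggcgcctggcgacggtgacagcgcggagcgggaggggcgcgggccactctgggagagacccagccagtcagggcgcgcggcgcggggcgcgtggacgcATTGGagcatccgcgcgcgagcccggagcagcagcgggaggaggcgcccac
Cntn3, chr6:102464668-102464917, minus strand: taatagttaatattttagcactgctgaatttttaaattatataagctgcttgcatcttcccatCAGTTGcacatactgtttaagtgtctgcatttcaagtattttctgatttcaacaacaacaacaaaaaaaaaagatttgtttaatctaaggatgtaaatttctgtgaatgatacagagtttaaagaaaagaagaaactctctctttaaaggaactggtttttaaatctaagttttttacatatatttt
Cntn4, chr6:106118515-106118764, plus strand: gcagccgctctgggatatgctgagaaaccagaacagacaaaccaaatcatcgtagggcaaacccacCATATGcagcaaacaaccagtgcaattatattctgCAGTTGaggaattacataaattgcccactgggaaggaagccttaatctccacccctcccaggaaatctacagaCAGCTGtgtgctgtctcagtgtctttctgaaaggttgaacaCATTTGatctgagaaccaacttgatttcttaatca

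The windows differed in base composition. That of Cntn5 was 64.8% G or C with 24 CpG, against a median of 52.4% and 6 CpG over 32817 windows of the same length, and that of Cntn1 was 53.6% with 7 CpG. The Cntn4 window held 44.4% G or C with 2 CpG, and the Cntn3 window 26.4% with none. E-boxes, present in 66.2% of all windows, numbered 4 in Cntn4, 1 in Cntn3 and 0 in Cntn1 and Cntn5. CCAAT boxes, present in 33.8%, numbered 2 in Cntn1, 1 in Cntn5 and 0 in Cntn3 and Cntn4. TATAAA (in 12.4% of windows), GGGCGG (32.7%) and TAATTA (4.85%), searched like the others on both strands, were in none of the 4 windows, and no matches overlapped. In GENCODE the starts of Cntn1 and Cntn5 are those of the gene, whereas the RefSeq starts of Cntn3 and Cntn4 lie 108.4 kb and 441 kb inside the longest gene model, in introns of it. The matches are letters in these windows only.

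The 10 genes fell into 3 groups by how widely they were read. Cntn1 had at least 1 read in every neuron, and Cntnap2, Cntnap1 and Cntn2 had one in at least 83.7% of every type. Cntn3, Cntn4, Cntn5 and Cntn6 were read in most ACP neurons but in shares that differed among the other types, and Cntnap4 and Cntnap5a were read in fewer than 50% of the ACP and ACV neurons. A neuron had reads on a mean of 7.68 ± 1.21 (SD, n = 53) of the 10 genes in ACP, 6.51 ± 1.56 (SD, n = 98) in ACV and 6.48 ± 1.95 (SD, n = 52) in the larynx group, with lows of 4, 3 and 1 and highs of 10, 9 and 10. Thinning each neuron to 348013 counts, which 11 shallower neurons did not reach (1 ACP, 1 ACV and 9 laryngeal), gave means of 7.37, 6.19 and 6.63. The ACP mean was thus the highest at matched depth too, by less than the SD over ACV or over laryngeal neurons.

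**Figure D1:**
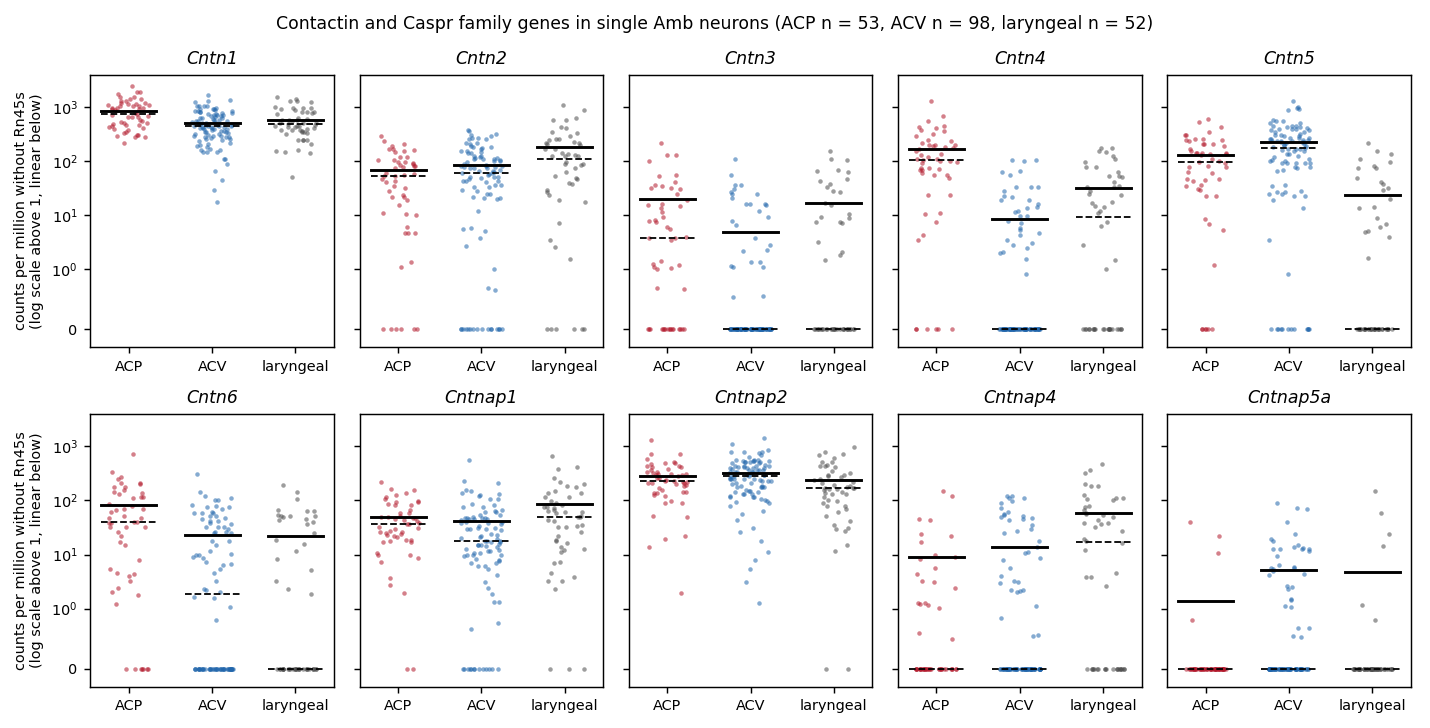
Level of each of the 10 genes in each neuron, in CPM without Rn45s (y axis, logarithmic above 1 and linear below), by type (x axis). Each point is 1 neuron, the solid line the mean and the dashed line the median; Cntn4 has a mean of 170.95 in ACP, 8.65 in ACV and 32.3 in laryngeal neurons, and points of the 3 types overlap in every panel.

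Cntn1 (chromosome 15, 92051165 to 92341967, plus strand, GRCm38) was the most abundant contactin in every type. Its level ran from 217 to 2494 CPM around a median of 730 in ACP neurons. In ACV neurons it ran from 17.3 to 1706 around 446, and in laryngeal neurons from 50.6 to 1556 around 482. The mean of 857 ± 496 (SD, n = 53) in ACP was 1.69-fold that of ACV (508 ± 321, SD, n = 98) and 1.48-fold that of laryngeal neurons (579 ± 352, SD, n = 52), neither of which reached 2-fold. An ACP neuron was the higher in 72.4% of all pairs of 1 ACP and 1 ACV neuron, and only 4 ACP neurons exceeded the highest ACV neuron, so the ranges overlapped almost wholly.

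Cntnap1 (chromosome 11, 101170523 to 101190724, plus strand), the Caspr gene whose product pairs with contactin-1, followed another order. It ran from 0 to 220 CPM with a median of 36.8 in ACP, from 0 to 554 with a median of 17.9 in ACV, and from 0 to 668 with a median of 49.2 in laryngeal neurons. Its laryngeal mean of 87.5 ± 122.9 (SD, n = 52) was 2.13-fold that of ACV (41.04 ± 69.1, SD, n = 98) and 1.74-fold that of ACP (50.2 ± 46.97, SD, n = 53). The difference from ACV is close to the 2-fold line and fell below it in 3 of 8 processing alternatives, with log2 ratios of ACV over laryngeal from -1.38 to -0.76. In the pair as a whole, the contactin was thus highest in ACP and the Caspr in laryngeal neurons, and in both cases the neurons of the types overlapped.

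Cntn2 (chromosome 1, 132509427 to 132543256, minus strand) was highest in laryngeal neurons. It ran from 0 to 1078 CPM there, with a median of 110 and a mean of 179.9 ± 227 (SD, n = 52). In ACP it ran from 0 to 296 with a median of 52.9 and a mean of 68.4 ± 69.3 (SD, n = 53), and in ACV from 0 to 378 with a median of 60.7 and a mean of 85.9 ± 90.6 (SD, n = 98). The laryngeal mean was 2.63-fold that of ACP and 2.09-fold that of ACV. Most neurons lay in a shared range, but 9 of 52 laryngeal neurons exceeded every ACP neuron and 7 exceeded every ACV neuron. The shares with a read were alike at 88.7%, 83.7% and 88.5%, so the difference lay in the level and not in the number of neurons read. With totals that include Rn45s both ratios were below 2-fold, at log2 values of -0.83 for ACP and -0.63 for ACV over laryngeal neurons, and the latter also without the highest neuron of each type, at -0.97.

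Cntnap2 (chromosome 6, 45059357 to 47304213, plus strand), the gene of Caspr2 and the longest of the 10 at 2245 kb, varied least between types. Its range was 1.98 to 1337 CPM in ACP with a median of 226, 1.25 to 1429 in ACV with a median of 287, and 0 to 993 in laryngeal neurons with a median of 167.7. The mean was 283 ± 223 (SD, n = 53) in ACP, 321 ± 245 (SD, n = 98) in ACV and 238 ± 222 (SD, n = 52) in laryngeal neurons, and the widest ratio, of ACV over laryngeal neurons, was 1.35-fold. A read was found in all ACP and ACV neurons and in 50 of 52 laryngeal neurons (96.2%, exact 95% interval 86.8% to 99.5%, counting error only).

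Cntn4 (chromosome 6, 105677660 to 106699310, plus strand), a contactin known from the wiring of olfactory and visual axons, differed most between ACP and ACV. Its level ran from 0 to 1280 CPM around a median of 103.7 in ACP neurons, from 0 to 106.2 around a median of 0 in ACV neurons, and from 0 to 176.997 around 9.33 in laryngeal neurons. The mean of 170.95 ± 217 (SD, n = 53) in ACP was 19.8-fold that of ACV (8.65 ± 21.2, SD, n = 98) and 5.29-fold that of laryngeal neurons (32.3 ± 48.8, SD, n = 52). In ACP, 26 of 53 neurons exceeded every ACV neuron and 18 exceeded every laryngeal neuron. At the low end the types overlapped, since 6 ACP neurons had no read while 35 of 98 ACV neurons (35.7%, exact 95% interval 26.3% to 46.03%) and 31 of 52 laryngeal neurons (59.6%, 45.1% to 72.99%) had one. The counts behind these levels were 9817 in ACP (exact Poisson 95% interval 9624 to 10013), 1050 in ACV (987 to 1115) and 1122 in laryngeal neurons (1057 to 1189.6), and the log2 ratio of ACP over ACV stayed between 4.07 and 4.52 in 8 processing alternatives.

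Cntn6 (chromosome 6, 104492790 to 104863406, plus strand), also called NB-3, was higher in ACP than in both other types. Its level ran from 0 to 739 CPM with a median of 39.7 in ACP, from 0 to 309 with a median of 1.85 in ACV, and from 0 to 197.3 with a median of 0 in laryngeal neurons. The ACP mean of 83.8 ± 123.2 (SD, n = 53) was 3.65-fold that of ACV (22.98 ± 43.1, SD, n = 98) and 3.76-fold that of laryngeal neurons (22.3 ± 39.4, SD, n = 52). Only 2 ACP neurons exceeded the highest ACV neuron, and the share of neurons with a read was 86.8% in ACP against 54.1% in ACV and 46.2% in laryngeal neurons. The direction between ACV and laryngeal neurons changed sign in 4 of 8 alternatives (log2 ratio 0.05, range -0.25 to 0.37).

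Cntn3 (chromosome 6, 102162655 to 102573101, minus strand) was the least abundant contactin. It ran from 0 to 215 CPM with a median of 3.75 in ACP, from 0 to 108.8 with a median of 0 in ACV, and from 0 to 155.8 with a median of 0 in laryngeal neurons. The mean was 20.2 ± 40.2 (SD, n = 53) in ACP, 4.92 ± 14.3 (SD, n = 98) in ACV and 16.8 ± 32.7 (SD, n = 52) in laryngeal neurons. ACV stood apart as the low type, 4.12-fold below ACP and 3.41-fold below laryngeal neurons, whereas ACP and laryngeal neurons were 1.21-fold apart with a direction that turned in 1 of 8 alternatives. The share of ACP neurons with a read, 69.8%, fell to 55.8% after thinning, beside 23.7% in ACV and 48.8% in laryngeal neurons.

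Cntn3, Cntn6 and Cntn4 lie in that order on chromosome 6 with one other protein-coding gene, Chl1, between Cntn3 and Cntn6. Reads on all 3 contactins were found in 32 of 53 ACP neurons (60.4%), in 5 of 98 ACV neurons (5.10%) and in 9 of 52 laryngeal neurons (17.3%). None of the 3 was read in 1 ACP, 22 ACV and 11 laryngeal neurons. Chl1, which encodes another cell adhesion molecule of the L1 family, had a mean of 401 ± 317 (SD, n = 53) CPM in ACP, 216 ± 170 (SD, n = 98) in ACV and 206 ± 204 (SD, n = 52) in laryngeal neurons, ratios under 2-fold at log2 values of 0.90 and 0.96. Of the 10 neighbors between Pdzrn3 and Bhlhe40, 1 was at least 2-fold higher in ACP than in ACV (Il5ra, read in 15.1% of ACP neurons and in 1 ACV neuron, a gene outside the naming rule and named after its values were seen) and 0 were higher in ACV. Of all genes 9.87% and 8.63% were. Against laryngeal neurons 2 neighbors were higher in ACP (Il5ra and Setmar) and 1 lower (Pdzrn3, log2 ratio -1.02), beside 10.3% and 12.5% of all genes. Of 9 neighbors compared between ACV and laryngeal neurons 1 was higher in ACV (Setmar) and 0 in laryngeal neurons, beside 10.4% and 13.97%. The log2 ratios of ACP over ACV were -0.82 for Pdzrn3, 0.71 for Lrrn1 and -0.88 for Itpr1, and Trnt1 and Crbn, past the end of Cntn4 and named after their values were seen, had log2 ratios of ACP over ACV of -0.23 and -0.10. Over 53 ACP neurons, in each of which the genes share a library and depth, Spearman's rho was 0.35 between Cntn4 and Cntn6. It was -0.20 between Cntn3 and Cntn4 and -0.00 between Cntn3 and Cntn6. The highest and lowest values among member pairs in ACP were 0.55 for Cntn4 with Cntn5, on chromosome 9, and -0.44 for Cntn4 with Cntnap4, on chromosome 8. Both signs turned in ACV neurons, at -0.22 and 0.21, and in laryngeal neurons these pairs had 0.29 and 0.07.

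**Figure D2:**
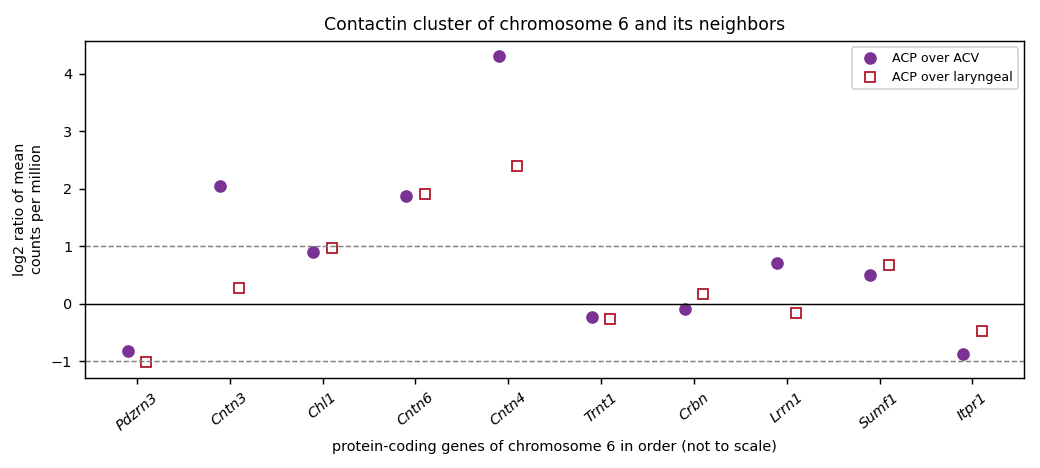
Log2 ratio of mean CPM (y axis) of ACP over ACV (filled circles) and of ACP over laryngeal neurons (open squares) for protein-coding genes in their order on chromosome 6 (x axis, not to scale), shown where at least 25% of the neurons of 1 type had a read, with dashed lines at 2-fold. Cntn4 stands highest at 4.31 and 2.40, and Chl1, Trnt1 and Crbn lie within 2-fold.

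Cntn5 (chromosome 9, 9660891 to 10904775, minus strand), known as NB-2 and from the connections of auditory and retinal neurons, was higher in both types of cardiac neuron. Its level ran from 0 to 598 CPM with a median of 96.2 in ACP, from 0 to 1313 with a median of 172.4 in ACV, and from 0 to 214 with a median of 0 in laryngeal neurons. The mean was 228 ± 243 (SD, n = 98) in ACV and 132.3 ± 135.3 (SD, n = 53) in ACP, 9.78-fold and 5.67-fold the laryngeal mean of 23.3 ± 45.7 (SD, n = 52). Of the ACV neurons 42 of 98 exceeded every laryngeal neuron, and of the ACP neurons 11 of 53 did. Shares with a read were 88.7% in ACP, 87.8% in ACV and 44.2% in laryngeal neurons (exact 95% interval 30.5% to 58.7%), and at matched depth 86.5%, 87.6% and 48.8%. ACV was 1.72-fold above ACP, which became 2-fold or more in the neurons with at most 900 counts of Apoe (log2 ratio of ACP over ACV -1.30). An antisense gene, Gm32710, shares 200 exon bases with Cntn5 on the opposite strand, and its reads cannot be told apart in libraries that do not mark strand.

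Cntnap4 (chromosome 8, 112570043 to 112882717, plus strand), the gene of Caspr4, which is known from the synapses of inhibitory interneurons, was highest in laryngeal neurons. It ran from 0 to 465 CPM with a median of 17.2 there, from 0 to 150 in ACP and from 0 to 123.1 in ACV, both with a median of 0. The laryngeal mean of 58.2 ± 98.02 (SD, n = 52) was 6.52-fold that of ACP (8.91 ± 27.1, SD, n = 53) and 4.19-fold that of ACV (13.9 ± 29.6, SD, n = 98), and 6 laryngeal neurons exceeded every ACP neuron. ACP and ACV were within 2-fold (log2 ratio -0.64), and that sign turned in the neurons with at most 900 counts of Apoe (0.21). Some interneuron genes were also higher in laryngeal neurons. Of the 6 on the list 4 (Gad1, Gad2, Slc32a1 and Slc17a6) had a mean at least 2-fold higher in laryngeal than in ACP neurons, beside 12.5% of all genes. Against ACV neurons 2 (Gad1 and Gad2) had, beside 13.97%. Slc6a5 was higher in ACP, at 53.4 CPM against 30.5 in laryngeal neurons and 18.4 in ACV. Slc17a7 had 1.76, 1.31 and 2.13 in ACP, ACV and laryngeal neurons. The sum of the 6 ran from 0 to 1997 CPM in ACP, from 0 to 2222 in ACV and from 0 to 1239 in laryngeal neurons, none of the 6 genes being at 0 in any type. Within a type the rank correlation of Cntnap4 with that sum was 0.38 over 53 ACP, 0.36 over 98 ACV and 0.50 over 52 laryngeal neurons, each neuron sharing a library and depth. For Cntn2 the corresponding values were 0.20, 0.10 and -0.06 and for Cntnap1 0.07, 0.17 and 0.15. The part of interneuron RNA in these differences was not tested. Of the exon bases of Cntnap4, 503 are shared with the antisense gene Gm45904.

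Cntnap5a (chromosome 1, 115684756 to 116587323, plus strand), of the Caspr5 group, was the rarest member. Its highest levels were 39.3 CPM in ACP, 88.5 in ACV and 148.8 in laryngeal neurons, and its median was 0 in all 3 types. A read was found in 35 of 98 ACV neurons (35.7%, exact 95% interval 26.3% to 46.03%), in 4 of 53 ACP neurons (7.55%, 2.09% to 18.2%) and in 6 of 52 laryngeal neurons (11.5%, 4.35% to 23.4%). Thinned to a common depth the shares were 28.9%, 3.85% and 11.6%. The means were 5.14 ± 14.3 (SD, n = 98) in ACV, 1.38 ± 6.29 (SD, n = 53) in ACP and 4.76 ± 22.2 (SD, n = 52) in laryngeal neurons. One neuron held 53.9% of the ACP sum and one 60.1% of the laryngeal sum, and without the highest neuron of each type ACV was 2-fold or more above laryngeal neurons as well (log2 ratio 1.14, against 0.11 with them), and the sign of that ratio turned in 2 of 8 alternatives. Among neurons with at most 900 counts of the astrocyte gene Apoe, 1 of 26 ACP neurons had a read, with 1 count, beside 16 of 44 ACV neurons and 3 of 38 laryngeal neurons. No fold is read from that 1 count. The microglial genes were also lowest in ACP, and within types the rank correlation of Cntnap5a with their sum was 0.04, 0.21 and -0.00 in ACP, ACV and laryngeal neurons. The part of other cells in its level was not tested. Among the 10871 windows of read length, 75 bases, in its transcripts, 29 are also found in Cntnap5b or Cntnap5c. No window of the other 9 members occurs in another gene of either family.

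**Figure D3:**
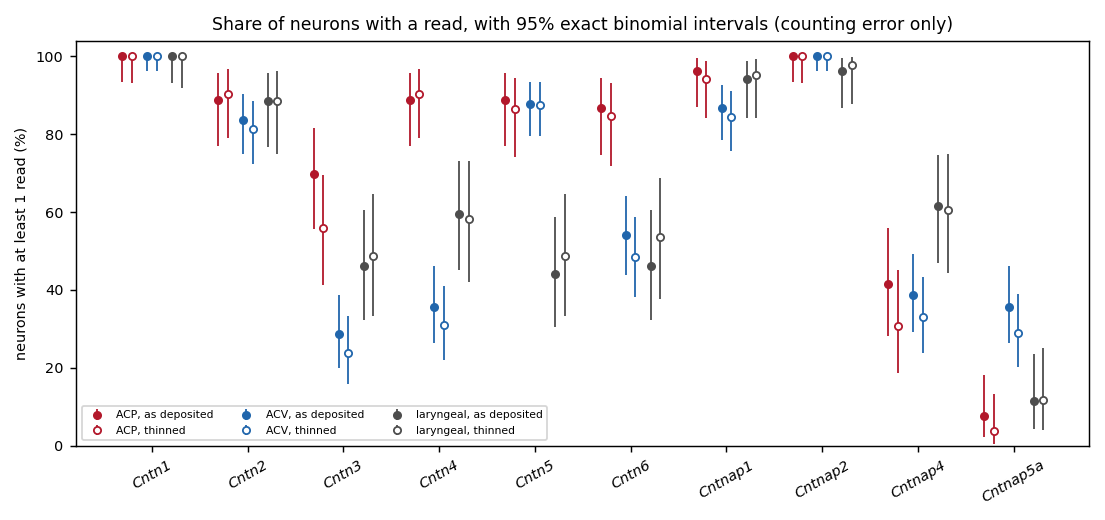
Share of neurons with at least 1 read (y axis, %) for each gene (x axis) in ACP, ACV and laryngeal neurons, as deposited (filled) and with each neuron thinned to 348013 counts (open); bars are exact binomial 95% intervals for counting error only. Cntn4 was read in 88.7%, 35.7% and 59.6% and Cntn5 in 88.7%, 87.8% and 44.2% of ACP, ACV and laryngeal neurons.

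Each comparison was read against all genes that reached a read in 10% or more of 1 type's neurons, a filter that all 10 members passed each time. Cntnap5a, read in 7.55% of ACP neurons, passed it against ACP only through the type where it was higher. That type was ACV with 35.7% or laryngeal neurons with 11.5%, so its place in those counts rests partly on the filter. Of the members, 3 (Cntn3, Cntn4 and Cntn6) were at least 2-fold higher in ACP than in ACV, where 9.87% of 13356 genes were, and 1 (Cntnap5a) was higher in ACV, where 8.63% were. The median log2 ratio was 0.05 over the members and 0.00 over all genes. Against laryngeal neurons, 3 members (Cntn4, Cntn5 and Cntn6) were higher in ACP, against 10.3% of 13256 genes, and 3 (Cntn2, Cntnap4 and Cntnap5a) were higher in the laryngeal type, against 12.5%. Their median was 0.26 beside -0.03. In ACV against laryngeal neurons, 1 member (Cntn5) was higher in ACV, against 10.4% of 13297 genes, and 5 (Cntn2, Cntn3, Cntn4, Cntnap1 and Cntnap4) were higher in the laryngeal type, against 13.97%. Here the medians were -0.63 and -0.02. The 3 comparisons share neurons by pairs, so they are not independent of one another. Of the 30 ratios, 16 reached 2-fold, and 13 of these did so in all 8 alternatives, the exceptions being Cntn2 in both laryngeal comparisons and Cntnap1 between ACV and laryngeal neurons. The 13 include the ratios of Cntnap5a in ACP to both other types, which under the limit of 900 Apoe counts rest on 1 count. Under that limit Cntnap5a was read in 3.85% of ACP and 7.89% of laryngeal neurons, below the filter of 10%. The members counted as higher in laryngeal than in ACP neurons were then 2 in place of 3.

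**Figure D4:**
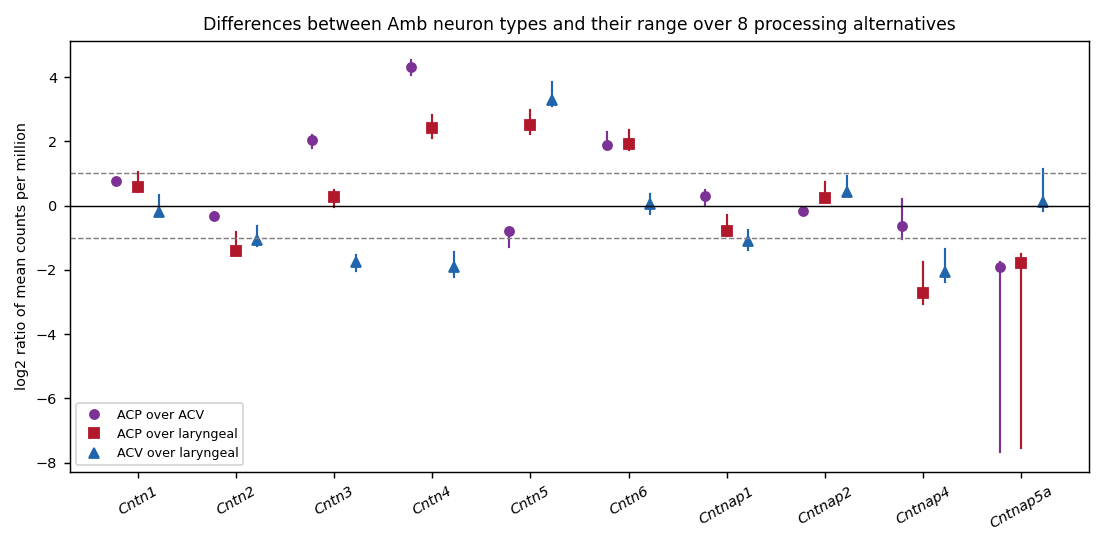
Log2 ratio of mean CPM (y axis) for each gene (x axis) in the 3 comparisons of types; symbols are the values reported, vertical lines their range over 8 processing alternatives, and dashed lines 2-fold. Cntn4 reaches 4.31 for ACP over ACV and Cntn5 3.29 for ACV over laryngeal neurons, and the long lines of Cntnap5a come from the neurons with at most 900 counts of Apoe, where 1 read was left in ACP.

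Per kilobase of exon, which allows genes to be compared, Cntn1 made up 60.8% of the summed contactin level in ACP, 53.1% in ACV and 68.2% in laryngeal neurons. The next gene differed by type. In ACV it was Cntn5 with 34.2%, in laryngeal neurons Cntn2 with 18.1%, and in ACP Cntn5 with 13.5%, Cntn4 with 10.6% and Cntn6 with 9.32%. Mean levels per kilobase in ACP were 140.01 CPM for Cntn1, 30.98 for Cntn5, 24.3 for Cntn4, 21.4 for Cntn6, 9.53 for Cntn2 and 3.82 for Cntn3, where Cntn1 lay above the next gene by more than its own SD over neurons (80.99) and every later neighbor in this order lay within the SD of the higher gene. In ACV the order was 83.03 for Cntn1, 53.4 for Cntn5, 11.97 for Cntn2, 5.88 for Cntn6, 1.23 for Cntn4 and 0.929 for Cntn3, every neighbor lying within the SD of the higher gene. In laryngeal neurons it was 94.5 for Cntn1, 25.1 for Cntn2, 5.70 for Cntn6, 5.46 for Cntn5, 4.60 for Cntn4 and 3.17 for Cntn3, where again only Cntn1 lay above the next gene by more than its SD (57.5). The summed level was 230.1 ± 125.9 (SD, n = 53) in ACP, 156.5 ± 88.9 (SD, n = 98) in ACV and 138.5 ± 83.7 (SD, n = 52) in laryngeal neurons.

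In single neurons Cntn1 led per kilobase in 51 of 53 ACP, 75 of 98 ACV and 48 of 52 laryngeal neurons, and Cntn5 led in 21 ACV neurons. With Cntn1 set aside, Cntn5 led in 74 of 98 ACV neurons, Cntn2 in 34 of 52 laryngeal neurons, and Cntn5, Cntn6 and Cntn4 in 23, 14 and 8 of 53 ACP neurons. Among the contactin-associated genes Cntnap2 held 71.6% of the summed level per kilobase in ACP, 74.7% in ACV and 45.5% in laryngeal neurons, where Cntnap1 held 30.8% and Cntnap4 22.9%.

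**Figure D5:**
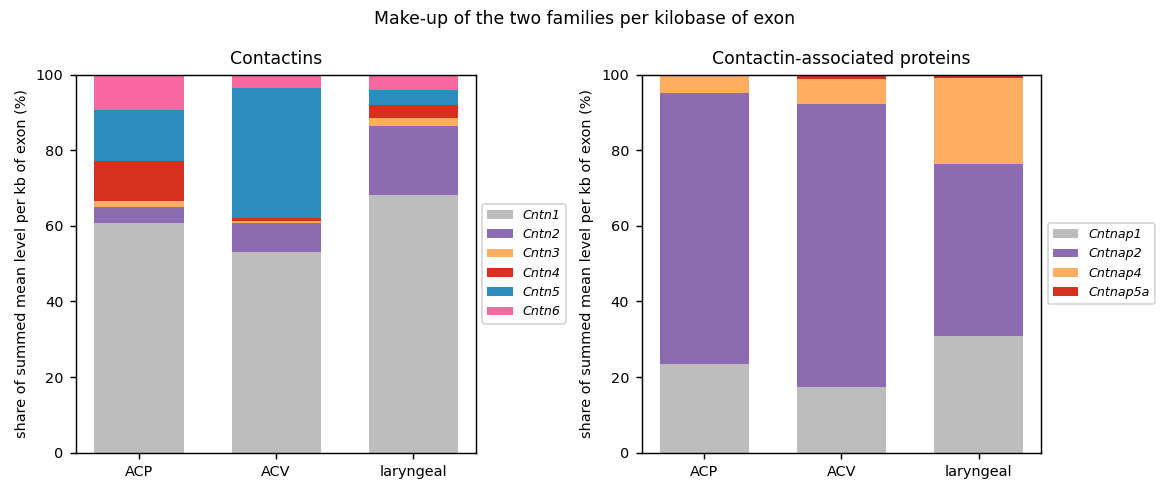
Share of the summed mean level per kilobase of exon (y axis, %) taken by each contactin (left) and each contactin-associated gene (right) in the 3 types (x axis). Cntn1 takes 53.1% to 68.2%, and the second largest contactin is Cntn5 in both cardiac types and Cntn2 in laryngeal neurons.

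Partners of these proteins at the node and paranode were mostly higher in laryngeal neurons where they differed. Of 19 such genes measured, 5 (Scn8a, Scn1a, Kcna1, Kcna2 and Dlg4) were at least 2-fold higher in laryngeal than in ACP neurons and 0 the other way. Of all genes 12.5% and 10.3% were. The median log2 ratio of ACP over laryngeal was -0.47 for the 19 beside -0.03 over all genes. Against ACV, 7 of the 19 were higher in laryngeal neurons and 0 the other way, beside 13.97% and 10.4% of all genes. The median was -0.54 beside -0.02. The processing alternatives were applied to the members and not to the genes of this or the other lists. With totals that include Rn45s, the median over all genes moved to 0.58 for ACP and 0.52 for ACV over laryngeal neurons. Kcna1, a Kv1 channel gene of the juxtaparanode, had a mean of 64.6 ± 78.9 (SD, n = 52) CPM in laryngeal neurons, 13.8 ± 50.2 (SD, n = 53) in ACP and 9.36 ± 29.2 (SD, n = 98) in ACV. Scn1a, a sodium channel gene, had 234 ± 243, 62.6 ± 81.6 and 90.2 ± 180.8 in the same order. Adam23, whose product belongs to the Kv1 complex, had 154.5 ± 187.1, 83.1 ± 108.7 and 39.2 ± 58.5, and Dlg4, a scaffold of these channels, had 41.99 ± 55.3, 19.4 ± 36.7 and 11.1 ± 19.3. Between ACP and ACV, 1 of the 19 was at least 2-fold higher in ACP (Adam23) and 1 in ACV (Epb41l2, a band 4.1 scaffold gene, 52.8 ± 80.3 against 25.6 ± 47.04), beside 9.87% and 8.63% of all genes. The anchor and scaffold genes Nfasc, Nrcam, Ank3, Ank2, Sptan1 and Sptbn1 were within 2-fold in all comparisons. Of the interneuron genes given with Cntnap4, Gad1 and Gad2 were also at least 2-fold higher in laryngeal neurons than in both other types, and Mag, a myelin gene, had a mean of 51.8 ± 186.5 there against 9.53 ± 33.03 in ACP and 5.90 ± 20.5 in ACV, although the sum of the 10 oligodendrocyte-line genes had medians of 351, 402 and 319 and ranges of 0 to 5671, 5.30 to 10537 and 0 to 9250.0. Their part in the result was not tested.

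Between ACP and ACV, 9.87% of all genes were at least 2-fold higher in ACP and 8.63% lower. Among 17 genes listed as direct or indirect partners of contactins, 1 was higher and 2 were lower. The higher was Ptprg, a receptor phosphatase that binds contactins 3 to 6, with a mean of 76.4 ± 108.3 (SD, n = 53) CPM in ACP, 23.4 ± 45.3 (SD, n = 98) in ACV and 51.5 ± 78.6 (SD, n = 52) in laryngeal neurons. Its log2 ratio was 1.71 for ACP over ACV and 0.57 for ACP over laryngeal. Mdk, a secreted growth factor, and Notch2, a receptor, were lower in ACP, Mdk at 7.92 ± 26.2 against 24.8 ± 56.6 in ACV and 21.8 ± 50.5 in laryngeal neurons, and Notch2 at 2.19 ± 6.10 against 4.75 ± 16.1 and 5.16 ± 18.6. Against laryngeal neurons both of these were the 2 lower in ACP and 0 were higher, beside 12.5% and 10.3% of all genes. In ACV 1 was higher than in laryngeal neurons (Tnc) and 1 lower (Ptprg), beside 10.4% and 13.97%. Counts this small do not set the list apart from all genes. Tnc, an extracellular matrix gene, was 2-fold or more higher in ACV than in laryngeal neurons, at 23.3 ± 75.9 against 9.90 ± 44.1. Ptprz1, a receptor phosphatase that binds contactin-1, differed little, with means of 107.8 ± 152.97, 112.3 ± 192.9 and 117.6 ± 183.3 in ACP, ACV and laryngeal neurons.

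The genes most like each member over all neurons were taken from 10591 genes read in at least 25% of them, by Spearman's rho, which here is a description over neurons that differ in library and depth. For Cntn5 they were Cdh8, Dgkg and Cask at 0.61, 0.58 and 0.56, and at 0.50, 0.40 and 0.40 when ranks were centered within each type. For Cntn4 they were Thsd7a, Tenm1 and Pcdh18 at 0.54, 0.53 and 0.52, but at 0.13, 0.36 and 0.22 within types. For Cntn6 they were Sema3d, Cntn4 and Gulp1 at 0.43, 0.36 and 0.36, with 0.26, 0.16 and 0.15 within types. Within types Thsd7a and Pcdh18 thus lost most of their likeness to Cntn4, and Cntn4 and Gulp1 most of theirs to Cntn6. Tenm1 and Sema3d kept more, and the genes of Cntn5 stayed at 0.40 or above. For Cntn1, Cntn2 and Cntnap2 the values within types stayed close to those overall. Cntn1 had Chgb, Atp6v0a1 and Gaa at 0.56, 0.55 and 0.55, and at 0.51, 0.52 and 0.49 within types. Cntn2 had Pcnx, Slc8a1 and Atp2b2 at 0.45, 0.44 and 0.43, and at 0.47, 0.44 and 0.40. Cntnap2 had Nrp2, Atp6v0a1 and Cacna1b at 0.52, 0.45 and 0.45, and at 0.57, 0.50 and 0.42. Those of Cntnap1 fell somewhat, with Dst, Nrxn2 and Gabbr1 at 0.52, 0.51 and 0.49, and at 0.40, 0.46 and 0.42 within types. Among the members themselves, 45 pairs in each of 3 types gave values from -0.44 to 0.61 with a median of 0.13, and 6 were at least 0.4. The highest were Cntn2 with Cntnap1 in laryngeal neurons and Cntn5 with Cntnap2 in ACV neurons, both 0.61.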

How the data were processed

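The authors trimmed the reads, aligned them to mm10 with STAR 2.6.1d (from the submitters' processing notes) and deposited raw counts of reads per gene and neuron, with no normalization. The program and annotation used for counting, and its use of strand, are not given in the sources used here. A table named CPM, whose columns do not sum to a common total, was not used. Counts were divided by the neuron's total without Rn45s, and the neurons' means were compared between the types of the deposited annotation. With no animal named, no test was made, and exact 95% intervals cover counting error only. Those on summed counts treat each read as a separate event, although reads carry no molecular identifiers and can be PCR copies. They also leave out the spread over neurons. No 2 neurons had identical counts. Exon lengths, from basic protein-coding transcripts, and overlaps are of GENCODE vM21, and promoter windows, found for 7 of the 10 members, are RefSeq's. The windows of Cntn2 and Cntn6 overlap annotated exons and are not shown. Alternatives were totals with Rn45s, edgeR 4.0.16 TMM sizes, DESeq2 1.42.0 size factors, thinning, a minimum of 1000000 total counts, a maximum of 900 Apoe counts, summed counts, leaving out the highest neuron of each type, no minimum share and 1.5-fold. The calculation of ratios was checked on simulated counts with known ratios. Named genes of a list were up to 4 with the largest ratio among those read in 25% of the neurons of 1 type, beside those that a count of 5 or fewer required or that were stated as within 2-fold, and the 3 genes most like each member read in at least 50% of neurons. Scn2a, on one list, was not analysed here. Members and lists were chosen with earlier results of these data known. Python 3.11.15, numpy 2.4.6, pandas 2.3.3 and scipy 1.17.1 were used.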

Additional observations from a re-analysis of the deposited data

How the results depend on the processing

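Of 30 ratios, none that reached 2-fold changed sign in 8 alternatives. Scaling to totals with Rn45s moved the median log2 ratio of all genes to 0.58 for ACP and 0.52 for ACV over laryngeal neurons, and the members followed, with 3 instead of 5 higher in laryngeal than in ACV neurons. Cntn1 then stood at 1.04 for ACP over laryngeal neurons, beside that shift of 0.58. The share of all genes at least 2-fold higher went from 10.3% in ACP and 12.5% in laryngeal neurons to 25.6% and 5.24%, and from 10.4% in ACV and 13.97% to 24.7% and 7.18%. Members higher in ACV than in ACP numbered 2 in place of 1 both with at most 900 counts of Apoe, which left 26 ACP, 44 ACV and 38 laryngeal neurons, and without the highest neuron of each type (Cntnap4, log2 ratio -1.04, while Cntn5 was the one added under the Apoe limit). Without those neurons 2 in place of 1 were also higher in ACV than in laryngeal neurons. At 1.5-fold, 7 members in place of 4 differed between ACP and ACV, 3 of them higher in ACV. Cntnap1 for ACV over laryngeal neurons was -0.98 with DESeq2 size factors and -0.77 with at most 900 counts of Apoe. The log2 ratio of Cntnap4 for ACP over ACV ran from -1.04 to 0.21. Without a minimum share, between 18547 and 18961 genes entered the background and 16.9% to 22.1% passed 2-fold in a direction. Shares of neurons with a read depend on depth, which was lowest in laryngeal neurons, and a type of 1 sample gives no measure of the spread between animals. No paired analysis was possible between cardiac and laryngeal neurons, which came from separate mice. Between ACP and ACV none was possible because no label names the animal of a neuron. The neurons' numbers only follow the order in which the samples are listed.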

Other observations

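Of the remaining contactin-associated genes, Cntnap5b was read in 17 of 53 ACP, 21 of 98 ACV and 7 of 52 laryngeal neurons, with means of 10.9 ± 39.7, 5.53 ± 18.003 and 1.08 ± 3.41 CPM (SD over neurons). One ACP neuron held 43.1% of the ACP sum. Cntnap5c was read in 9 ACP, 2 ACV and 10 laryngeal neurons, with 577 counts in ACP (exact Poisson 95% interval 531 to 626), 51.3% of the scaled sum in 1 neuron, and 50 in ACV (37.1 to 65.9). Cntnap5b and Cntnap5c were thus read in a larger share of ACP than of ACV neurons, the other order from Cntnap5a, which had a read in 7.55% of ACP and 35.7% of ACV neurons. Cntnap3 was read in 3 ACP, 5 ACV and 6 laryngeal neurons, with 76, 41 and 33 counts. These 3 genes are no members of the group described above.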
